A study of Mus musculus with 8 samples.

Results

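The 32 genes described here are known products of Sertoli cells, the somatic nurse cells of the seminiferous tubule, and were read in RNA of purified mouse round spermatids. They were taken from a list of gene names that was chosen with earlier results of these data known. Shares of the list set beside shares of all genes are therefore a description and not an independent test. A gene counts as measured when the platform annotation gives it at least 1 probe set of its own, and its brightest probe set, averaged over the 8 arrays, stands for it. By this rule 29 of the 32 were measured, among 18193 genes in all, and Defb36, Rhox8 and Trf were not analysed here.

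Round spermatids are the haploid cells that follow meiosis. The mutant group carries the BrdtΔBD1 allele, which removes the first bromodomain of Brdt, a testis-specific reader of acetylated histones. The control group is labelled only as control, without a genotype. Both groups are 129 Sv/Ev adults of 2 to 4 months, with 4 arrays each and cells pooled from 7 animals for every array. Cells were sorted by a gradient of 4% to 2% bovine serum albumin, and the labels mention propidium iodide staining as the purity check without giving its result. Nothing in the labels says whether pools with the same number were prepared together, but their arrays deviated together from their group means, so a fit with the replicate number as a block is given beside the fit without it wherever the call differs.

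Sertoli cells span the wall of the tubule and hold the germ cells in pockets between them. They form the blood-testis barrier through tight junctions, secrete binding proteins, protease inhibitors and hormones under the control of FSH and testosterone, and engulf the cytoplasm that spermatids shed. Their identity rests on transcription factors such as Sox9, Wt1 and Gata4. In a germ cell preparation, their transcripts are used as markers of somatic cells.

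The labelled cell type was checked first. The round spermatid transcripts Tnp1, Prm1 and Prm2, which encode transition protein and protamines, read between 14.9 and 15.5 on all 8 arrays on the log2 intensity scale used throughout, and the acrosomal gene Acrv1 read between 13.1 and 13.6. The mean of 15 round spermatid markers was 13.5 to 13.8 on mutant and on control arrays. Across all probe sets, arrays correlated with r between 0.970 and 0.994. In RNA quality, control arrays 1 and 3 differed from the rest: the Gapdh controls read 1.68 and 2.05 higher at the 3' than at the 5' end, against 0.33 to 0.94 on the other 6 arrays. The 18S ribosomal RNA controls set mutant array 1 apart as well. They read 11.20 and 8.87 on control arrays 1 and 3 and 8.11 on mutant array 1, against 3.7 to 5.5 on the remaining arrays.

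Sertoli cell transcripts were higher in the mutant preparations. Of the 29 measured genes 25 had a higher mutant mean (46.3% of all genes did), and the median log2 difference was 1.15, beside -0.02 over all genes. The genes Defb19, Cst12, Aard, Vim and Cldn11 rose (limma, adjusted p under 0.05 over all genes) and 0 fell, where 1.86% of all genes rose and 1.85% fell. Every mutant array was above every control array for 10 of the 29 and below for 0, against 6.15% and 6.49% of all genes. At an unadjusted p under 0.05, 18 of the 29 were higher and 0 lower, where 11% of all genes were higher and 9.16% lower. With the replicate block 15 of the 29 rose and 0 fell, where 6.6% of all genes rose and 4.94% fell. These RNAs come from pooled cells, so more cells of a type and more RNA per cell cannot be told apart.

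Single arrays weighed heavily on these counts. Without mutant array 3 no member passed, and without mutant array 2 there were 15. Without any 1 of the other 6 arrays there were 1 or 2. Counts over all genes followed: 70 rose in the first of these fits, 755 in the second and between 79 and 255 in the rest. With the block, leaving out pair 3 left 1 member, pair 4 left 4, pair 1 left 11 and pair 2 left 18. Calls over all genes moved in the same order. With the block, 79 genes rose when pair 3 was left out, 358 for pair 4, 627 for pair 1 and 1402 for pair 2. Without control arrays 1 and 3 together no member passed (limma, lowest adjusted p 0.0942, for Vim; 0.0989% of all genes rose), although the mean difference over the 29 genes was 1.22 both with and without these arrays. With the Gapdh 3' minus 5' difference as a covariate, Vim was the 1 member that passed, and 120 of all genes rose.

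Promoters of 4 of the genes with large differences are shown because these genes moved together, and because words bound by GATA factors, a family that includes the members Gata1 and Gata4, can be looked for in them. The sequences are the 250 bases before the annotated start, read 5′ to 3′ on the plus strand, from RefSeq (GRCm38.p6): chr2:148834897-148835146 for Cst9, chr2:148789115-148789364 for Cst12, chrX:103414217-103414466 for Tsx and chr2:13574061-13574310 for Vim. Capitals mark a GATA word in Cst9 and Tsx and a TATA box word in Vim.
Cst9: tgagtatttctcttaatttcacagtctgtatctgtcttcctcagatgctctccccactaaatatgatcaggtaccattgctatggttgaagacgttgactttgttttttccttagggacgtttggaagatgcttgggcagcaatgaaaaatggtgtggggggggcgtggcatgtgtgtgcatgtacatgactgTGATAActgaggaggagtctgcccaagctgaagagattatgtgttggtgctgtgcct
Cst12: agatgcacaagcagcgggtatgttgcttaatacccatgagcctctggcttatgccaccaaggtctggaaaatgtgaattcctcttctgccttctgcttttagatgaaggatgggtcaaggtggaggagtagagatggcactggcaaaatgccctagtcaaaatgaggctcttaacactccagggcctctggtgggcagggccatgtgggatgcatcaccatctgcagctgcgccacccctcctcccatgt
Tsx: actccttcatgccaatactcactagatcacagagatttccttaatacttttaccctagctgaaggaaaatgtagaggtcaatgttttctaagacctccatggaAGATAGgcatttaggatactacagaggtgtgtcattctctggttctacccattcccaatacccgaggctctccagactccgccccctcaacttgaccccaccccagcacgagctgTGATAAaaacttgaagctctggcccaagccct
Vim: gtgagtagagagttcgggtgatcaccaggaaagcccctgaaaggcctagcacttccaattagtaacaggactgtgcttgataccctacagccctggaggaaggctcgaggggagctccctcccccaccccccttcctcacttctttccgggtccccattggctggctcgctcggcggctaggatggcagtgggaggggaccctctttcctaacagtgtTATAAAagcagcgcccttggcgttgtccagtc
Cst9 and Cst12, cystatin genes that neighbour each other on chromosome 2, share little here: 48.6% of aligned positions were identical, beside 44.8% to 51.2% for the other 9 pairs among the promoters of these 4 genes and Cldn11. Of the 29 measured genes 21 have an entry, with 25 promoters in all. The letters GATA, with A or T before and A or G after them, searched on both strands, occurred in 8 of the 25 promoters (32%), against 26.5% of all 32851 promoters of the same length. They were found for 4 of the 11 genes that rose with the block and have an entry: Amhr2, Cst9, Tjp1 and Tsx. The SOX word AACAAT occurred in 2 of the 25 (8.0%, against 9.42%), the NR5A1 word AAGGTCA in 1 (4.0%, against 4.08%), the androgen receptor word AGAACA in 2 (8.0%, against 16.1%), each on both strands, and TATAAA on the given strand in 3 (12%, against 7.59%). In Rhox5 the SOX and androgen receptor matches overlap.

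Secreted products included several of the large differences. Of the 6 measured members of this group 2 rose, 5 with the block (1.86% and 6.6% of all genes). The group's median log2 difference was 2.25. Defb19, a beta-defensin of the testis and epididymis, read 12.05, 10.13, 12.07 and 11.40 in mutant arrays 1 to 4, and 7.49, 7.33, 9.59 and 9.21 in the control arrays of the same numbers, the order kept below. Every mutant array was above every control array, and mutant array 2 was the lowest of its group. The difference was 3.01 (SE 0.61), or 8.03-fold (limma, adjusted p = 0.036).

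Cst12, a cystatin of the reproductive tract in the family of cysteine protease inhibitors, read 11.66, 8.84, 11.27 and 10.72 in mutant and 7.04, 6.86, 8.71 and 8.34 in control arrays. The groups were separated by the small gap between mutant array 2 and control array 3. The difference was 2.88 (SE 0.65, adjusted p = 0.0464, limma). Its neighbour Cst9, also called testatin, read 11.07, 8.10, 10.60 and 10.28 in mutant and 6.66, 6.75, 8.30 and 8.37 in control arrays. Here mutant array 2 fell below control arrays 3 and 4, so the groups overlapped. The difference of 2.49 (SE 0.67) had an adjusted p of 0.0788 (limma), and of 0.0254 with the block.

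Ctsl encodes cathepsin L, a lysosomal protease that Sertoli cells also secrete. It read 11.43, 9.91, 11.55 and 11.39 in mutant and 8.04, 8.90, 9.45 and 9.90 in control arrays. Mutant array 2 and control array 4 were almost level, and the other 3 mutant arrays stood well above them. The difference was 2.00 (SE 0.47, adjusted p = 0.054, and 0.0239 with the block, limma).

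Clu, clusterin, is a secreted chaperone and one of the most abundant Sertoli cell products. It read 12.08, 11.22, 13.02 and 12.33 in mutant and 9.86, 10.28, 11.08 and 10.76 in control arrays, with no overlap. The difference was 1.67 (SE 0.39, adjusted p = 0.0524, and 0.00971 with the block, limma). Shbg, which encodes androgen-binding protein, read 2.68 to 2.93 in mutant and 2.36 to 2.58 in control arrays. Both lie under the array medians of 3.10 to 3.14, in the range where the background correction leaves little signal, and its difference of 0.33 (SE 0.10) did not pass with or without the block (adjusted p = 0.125 and 0.111, limma).

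**Figure D1:**
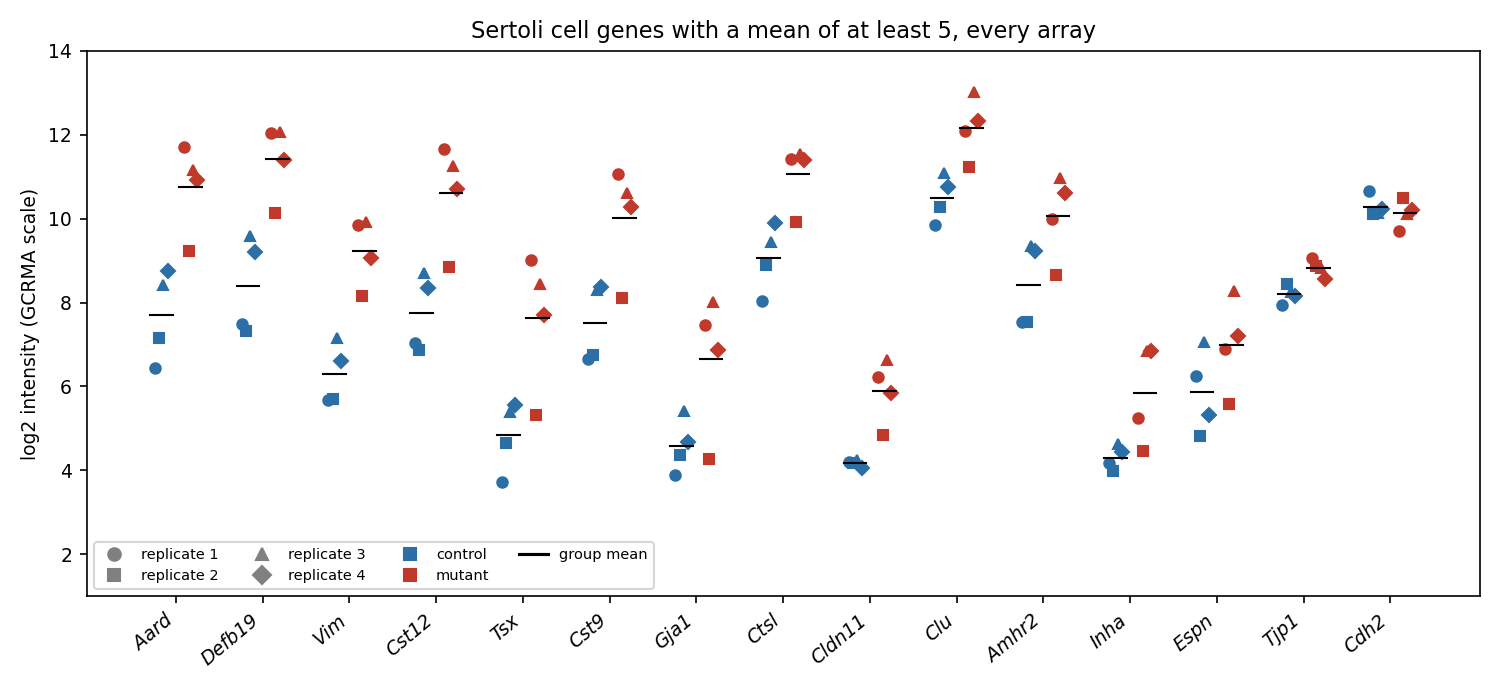
Log2 intensity on every array for the 15 Sertoli cell genes with a mean of at least 5, in order of their difference, with control in blue, mutant in red, one symbol per replicate number and black lines for group means (n = 4 arrays each). Mutant array 2 (red squares) is the lowest mutant array for 13 of the 15 genes, against 39.3% of all genes with such a mean. For 8 of the 15 no mutant array falls below a control array, which holds for 6.15% of all genes. The mean is taken over all 8 arrays, so Tsx, Inha, Cldn11 and Gja1, with control means under 5, are shown because of their mutant arrays.

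Among hormones, receptors and ligands 0 of 8 measured members passed without the block (limma), and 3 rose with it, Amhr2, Inha and Kitl. Of all genes 1.86% rose without the block and 6.6% with it. Amhr2, the receptor for anti-Müllerian hormone, read 9.99, 8.67, 10.96 and 10.62 in mutant and 7.55, 7.53, 9.35 and 9.22 in control arrays. The groups overlapped through mutant array 2, while each mutant array exceeded the control array of its number, by 1.14 to 2.44. The difference was 1.65, with an SE of 0.60 without the block and 0.22 with it (adjusted p = 0.166 and 0.0105, limma).

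Inha encodes the alpha subunit of inhibin, the hormone that restrains FSH. It read 5.24, 4.45, 6.86 and 6.83 in mutant and 4.17, 3.98, 4.63 and 4.44 in control arrays. Mutant arrays 3 and 4 were high and mutant array 2 lay within the control range (difference 1.54, SE 0.51, adjusted p = 0.139, and 0.036 with the block, limma). Inhbb, a beta subunit of inhibin and activin, read 4.36, 3.19, 5.67 and 4.32 in mutant and 2.73 to 3.40 in control arrays, and its difference of 1.20 (SE 0.44) did not pass in either fit.

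Kitl, the ligand of the Kit receptor on spermatogonia, read 4.29, 3.29, 4.15 and 3.94 in mutant and 2.63, 2.80, 3.44 and 3.01 in control arrays. Mutant array 2 lay below control array 3, and the difference was 0.94 (SE 0.25, adjusted p = 0.0751, and 0.0345 with the block, limma). Amh, anti-Müllerian hormone, is made mainly by immature Sertoli cells and read 1.80 to 2.17 in mutant and 1.82 to 2.07 in control arrays. Fshr, the FSH receptor, read 2.38 to 2.70 and 2.23 to 2.55, Gdnf, a growth factor for spermatogonial stem cells, 2.59 to 2.94 and 2.79 to 3.29, and Dhh, a hedgehog ligand that acts on Leydig and peritubular cells, 2.39 to 3.70 and 2.65 to 3.04. For these 4 genes the groups overlapped and both group means lay under the array medians, so a difference at their level may not be detectable.

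Transcription factors of the Sertoli lineage had a median log2 difference of 0.33. Of 6 measured members 0 passed without the block (limma) and Wt1 rose with it, where 1.86% and 6.6% of all genes rose. Wt1, a zinc finger factor that maintains Sertoli identity, read 5.38, 4.04, 5.36 and 5.63 in mutant and 3.82, 3.95, 3.73 and 4.32 in control arrays. Mutant arrays 1, 3 and 4 were above all controls and mutant array 2 was among them (difference 1.15, SE 0.33, adjusted p = 0.0902, and 0.0427 with the block, limma).

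Rhox5, an X-linked homeobox gene regulated by androgen in Sertoli cells, read 6.23, 4.39, 6.16 and 5.75 in mutant and 3.89, 4.27, 4.01 and 4.50 in control arrays. The pattern over arrays was that of Wt1, and the difference was 1.46 (SE 0.38, adjusted p = 0.0709, and 0.0508 with the block, limma). Gata4 and Gata1, zinc finger factors, differed by 0.39 (SE 0.18, adjusted p = 0.277) and 0.28 (SE 0.24, adjusted p = 0.593, limma). Sox9, the factor that starts Sertoli differentiation, read 3.55 to 3.99 in mutant and 3.59 to 3.95 in control arrays, with a mean of 3.80 in both groups and an SE of 0.14 for the difference. Its other probe sets differed by 0.27 and 0.04. Its relative Sox8 read 2.18 to 2.32 and 1.98 to 2.49, under the array medians. The group means of Sox9, Gata4 and Gata1 were little above these medians, where the background correction can shrink a difference.

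**Figure D2:**
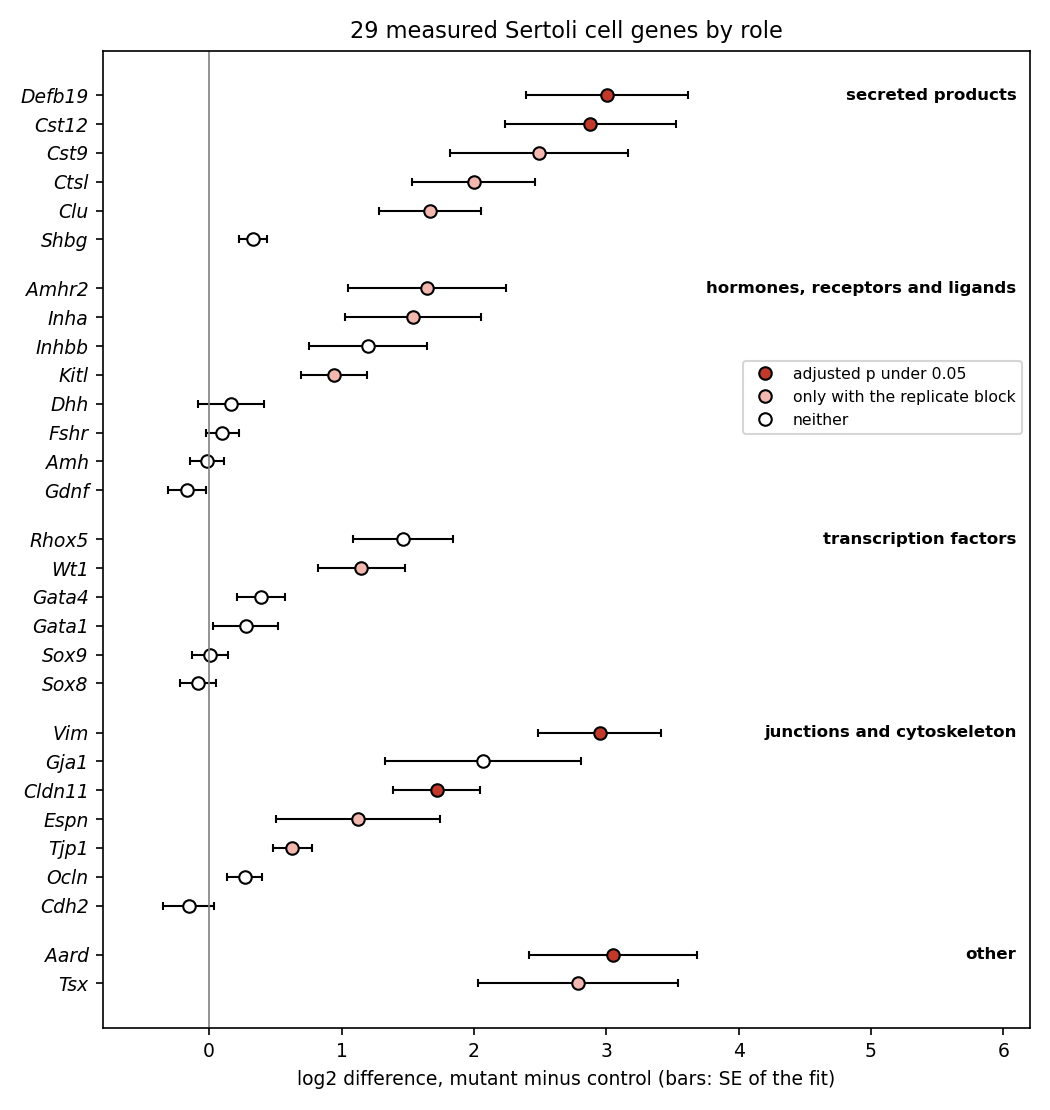
Log2 difference, mutant minus control, with the SE of the fit for all 29 measured genes, arranged by role. Dark symbols are the 5 genes that passed without the block, pale symbols the 10 that passed only with the replicate number as a block, and open symbols the 14 that passed in neither fit, with secreted products mostly to the right and the SOX and GATA factors near 0. The SOX and GATA factors read near or under the array medians.

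Junction and cytoskeleton genes were mixed. Of 7 measured members 2 rose, Vim and Cldn11, and 4 rose with the block, which adds Espn and Tjp1. The shares of all genes were 1.86% and 6.6%. Vim, vimentin, the intermediate filament protein of Sertoli and other somatic cells, read 9.84, 8.15, 9.91 and 9.06 in mutant and 5.68, 5.70, 7.16 and 6.62 in control arrays. The lowest mutant array was about 1 log2 unit above the highest control array. The difference was 2.95 (SE 0.46, 7.72-fold, adjusted p = 0.0144, limma), and its adjusted p was 0.05002 without mutant array 3.

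Cldn11 encodes claudin 11, a tight junction strand protein of the blood-testis barrier. It read 6.23, 4.85, 6.63 and 5.85 in mutant and 4.20, 4.18, 4.25 and 4.05 in control arrays. The controls were nearly identical and the mutant arrays spread widely above them (difference 1.72, SE 0.33, adjusted p = 0.0294, limma). Tjp1, the junction scaffold ZO-1, read 9.05, 8.87, 8.82 and 8.56 in mutant and 7.95, 8.44, 8.25 and 8.15 in control arrays. Its groups did not overlap either, at a smaller difference of 0.63 (SE 0.15, adjusted p = 0.0548, and 0.0442 with the block, limma). Ocln, occludin, a further tight junction protein, read 2.59 to 2.94 and 2.21 to 2.58, under the array medians, and did not pass.

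Gja1, connexin 43 of the gap junctions between Sertoli cells and germ cells, read 7.47, 4.26, 8.02 and 6.87 in mutant and 3.89, 4.36, 5.42 and 4.67 in control arrays. Mutant array 2 was at the level of the controls and the other mutant arrays were far above. The difference was 2.07 (SE 0.74, adjusted p = 0.161, and 0.0599 with the block, limma). Espn, espin, an actin-bundling protein of the Sertoli ectoplasmic specialization, read 6.90, 5.57, 8.28 and 7.21 in mutant and 6.24, 4.83, 7.06 and 5.32 in control arrays. Here arrays of 1 number moved together, and the SE of the 1.13 difference went from 0.62 to 0.22 with the block (adjusted p = 0.358 and 0.0266, limma).

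Aard and Tsx make up the rest. Aard, a gene named for its alanine- and arginine-rich domain, read 11.70, 9.22, 11.17 and 10.91 in mutant and 6.44, 7.15, 8.43 and 8.76 in control arrays. The groups did not overlap, and the difference was 3.05 (SE 0.63, adjusted p = 0.0377, limma). Tsx, a testis-specific X-linked gene, read 9.01, 5.32, 8.45 and 7.71 in mutant and 3.73, 4.66, 5.38 and 5.56 in control arrays. Mutant array 2 lay within the control range, and the difference of 2.79 (SE 0.76) had an adjusted p of 0.0796, and of 0.0478 with the block (limma).

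Many of the 29 genes ordered the arrays alike. Mutant array 2 was the lowest mutant array for 22 of the 29 (75.9%), against 31.5% of all genes. Mutant array 3 was the highest for 17 of the 29 (58.6%), against 15.8% of all genes. Control array 1 was the lowest control array for 16 of the 29 (55.2%, against 19.8%), and control array 3 the highest for 12 (41.4%, against 20.7%). The median SD of the 29 genes was 0.74 in mutant and 0.27 in control arrays, beside 0.23 and 0.22 over all genes. For the 15 with a mean of at least 5 it was 1.01 and 0.80, beside 0.33 and 0.29 over all genes with such a mean. These shares and spreads are a description of genes that share the same arrays.

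Arrays with the same number were then compared directly. A higher value in the mutant array of all 4 pairs was found for 19 of the 29 genes, where 17.7% of all genes had it. Pair 1 gave the largest difference for 16 of the 29 and pair 2 the smallest for 19. The median difference over the 29 genes was 1.56 in pair 1, 0.40 in pair 2, 1.61 in pair 3 and 1.25 in pair 4. In pair 1, which holds control array 1, the difference reached 5.25 for Aard and 5.27 for Tsx, while in pair 2 it was 0.66 for Tsx and -0.09 for Gja1.

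**Figure D3:**
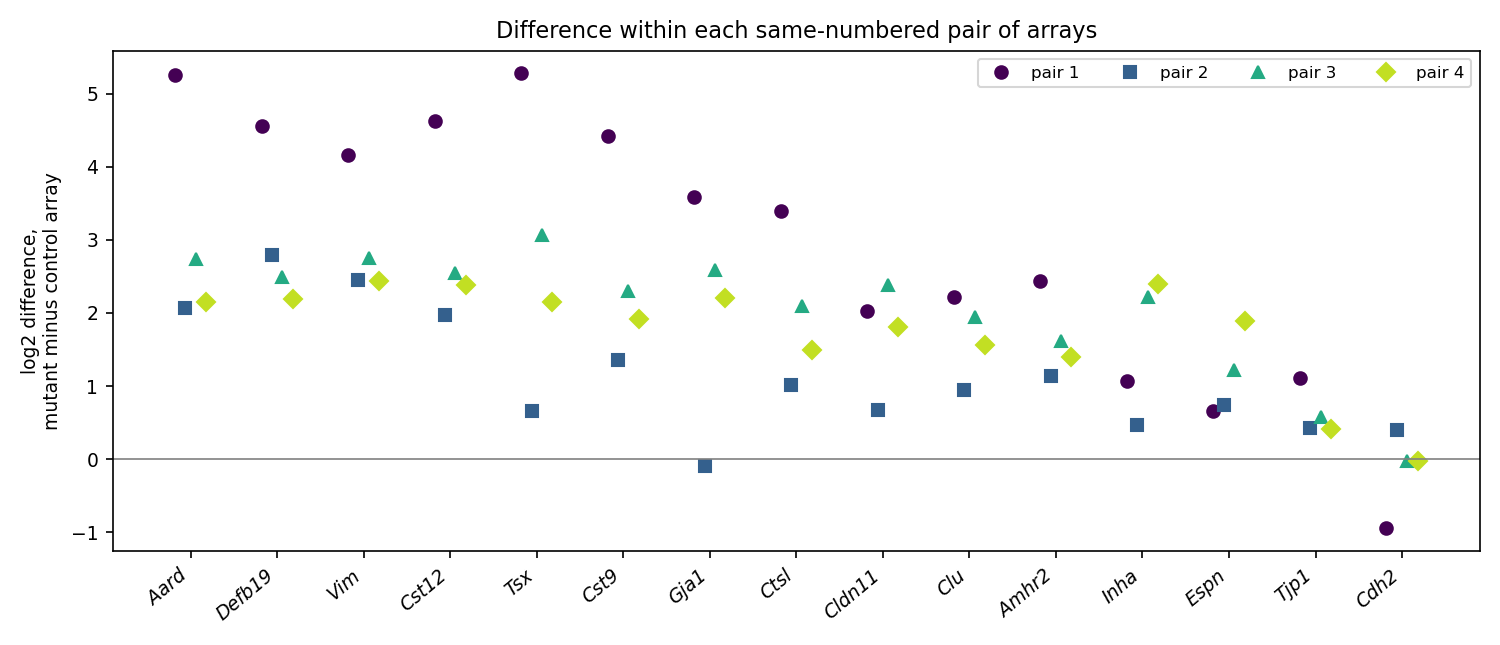
Difference between the mutant and the control array of the same replicate number for the 15 genes with a mean of at least 5, with 1 symbol per pair. The genes shown are those of the plot of log2 intensities, with the same choice by mean. Pair 1 lies highest for 11 of the 15 genes and pair 2 lowest for 10, and Gja1 and Cdh2 are the 2 genes with a pair below 0.

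Several of these genes are read by more than 1 probe set, which gives a check within the gene on the same RNA. Altogether 52 probe sets belong to the 29 genes, and 12 genes have more than 1. Of the 23 probe sets that do not stand for their gene, 19 were higher in mutant arrays, where 44.5% of all probe sets were. Of the 23, 1 rose past the threshold over probe sets (limma; 0.717% of all probe sets rose), 9 rose with the block (3.92%) and 0 fell with it. Differences ran from -0.12 to 3.33. The probe sets of Vim had differences of 2.95, 2.89 and 3.33, those of Clu 1.67, 1.53, 1.84 and 2.06, and those of Amhr2 1.65, 1.66 and 1.95. Those of Gja1 ran from 0.09 to 2.40, and the smallest differences were those of the pair with group means near 3. Kitl was carried by 1 probe set: the other 3 differed by -0.07, 0.28 and -0.11. When all probe sets of a gene were averaged, the difference went from 0.94 to 0.26 for Kitl, 2.00 to 0.94 for Ctsl, 2.07 to 1.24 for Gja1, 1.20 to 0.72 for Inhbb and 0.27 to 0.094 for Ocln, and 0 of these passed in that fit, which has no block. The other probe sets of Kitl, Ctsl, Inhbb and Ocln had group means under the array medians. That of Ctsl averaged 2.53 in mutant and 2.65 in control arrays.

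Cdh2, N-cadherin, an adhesion protein of both Sertoli and germ cells, was the exception. Its brighter probe set read 9.70, 10.50, 10.10 and 10.21 in mutant and 10.65, 10.10, 10.13 and 10.24 in control arrays, a difference of -0.15 (SE 0.19, adjusted p = 0.721, limma). The other averaged 9.64 in mutant and 8.42 in control arrays without overlap, a difference of 1.22 (SE 0.25, adjusted p over probe sets 0.0564, and 0.0108 with the block, limma). The dimmer minus the brighter probe set was -0.49 on average in mutant and -1.86 in control arrays, with every mutant array above every control array. Cdh2 was singled out after its values were seen, so the disagreement is given without a test.

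**Figure D4:**
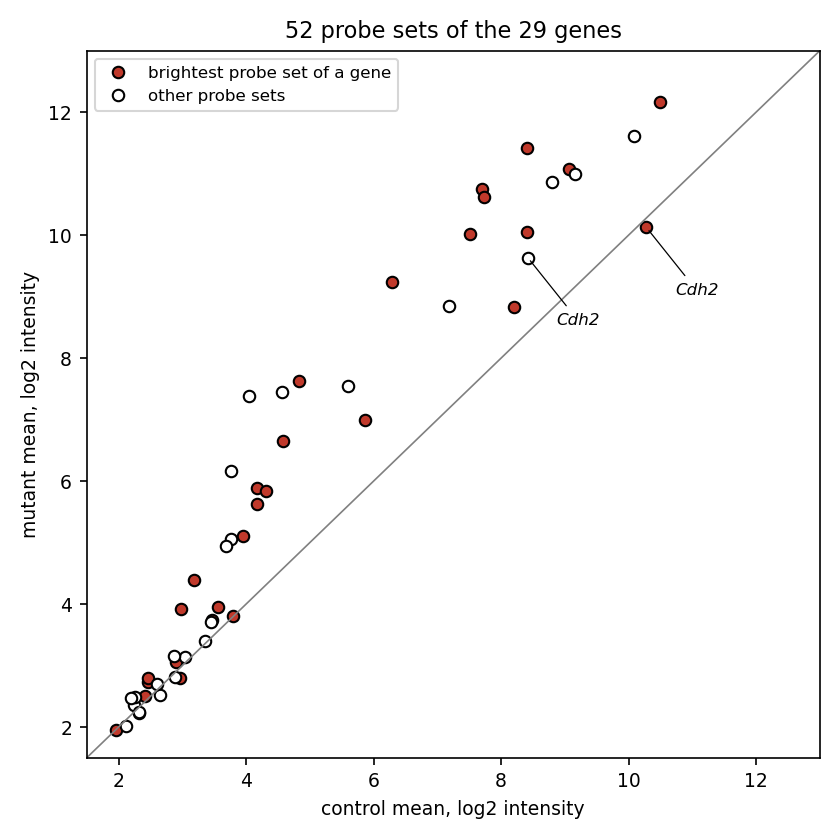
Mutant against control mean of log2 intensity (n = 4 arrays each) for the 52 probe sets of the 29 genes, filled for the brightest probe set of a gene and open for the others, with the line of equality. Most of the 52 points lie above the line, and the brighter probe set of Cdh2 lies just below it.

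Sertoli cell genes outside the list, also chosen with earlier results known, were examined in the same fit. Of 33 measured 5 rose and 0 fell (limma; 1.86% and 1.85% of all genes), and 8 rose with the block (6.6% of all genes). At an unadjusted p under 0.05, 13 were higher and 2 lower (11% and 9.16% of all genes). The list had a median log2 difference of 0.26. Fabp5, a fatty acid-binding protein, read 8.98, 5.22, 8.84 and 7.89 in mutant and 3.37, 2.73, 4.62 and 4.16 in control arrays. Mutant array 2 was the lowest mutant array, though still above every control array. Serpina5, a serine protease inhibitor, rose 4.68-fold, Slc16a1, a transporter of lactate and pyruvate, 2.72-fold, and Ctnnb1, beta-catenin, 2.25-fold (adjusted p of 0.0368, 0.0376 and 0.0311, limma). The fifth was the integrin gene Itgb1, 2.10-fold higher (adjusted p = 0.0378, limma), which is named after its value was seen. Serpina5, like Fabp5, was lowest among mutant arrays on array 2, at 4.32. Ctnnb1, Itgb1 and Slc16a1 were lowest on mutant array 4, at 9.53, 4.94 and 6.79, and Ctnnb1 read 8.43 to 9.08 in control arrays. Whether these genes were read from Sertoli cells was not tested. With all probe sets averaged, Slc16a1 did not pass (log2 difference 0.63 in place of 1.45, adjusted p = 0.0704, limma). With the block Nr0b1, Jam2 and Axl also rose. Leaving out mutant array 3, control array 1 or control array 4 left 0 of the 33 past the threshold, and leaving out mutant array 2 gave 10.

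The 29 Sertoli genes averaged 6.64, 5.56, 6.92 and 6.53 in mutant and 4.83, 4.98, 5.54 and 5.41 in control arrays. Mutant array 2 was barely above control array 3. Their summed level on the linear scale ran from 8694 to 27850 in mutant and from 4037 to 7335 in control arrays. Markers of other cells moved in part with them. The mean of 13 spermatogonia markers was 4.84 to 5.42 in mutant and 4.15 to 4.55 in control arrays, with a summed level of 972.6 to 1909 against 454.3 to 758.8. Of these 13 genes 1 rose, Etv5 (adjusted p = 0.0419, and 0.0719 with all its probe sets averaged, limma), and 4 rose with the block. Over all genes these shares were 1.86% and 6.6%. The median log2 difference of the 13 was 0.43, below the difference of 0.69 between the list means. Whether the risen genes were read from spermatogonia was not tested.

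The mean of 8 Leydig cell markers was 3.92 to 4.24 against 2.99 to 3.40, with a summed level of 139.9 to 318.0 against 69.5 to 92.4. Of the 8, 2 rose (1.86% of all genes did), Aldh1a1 5.67-fold and Gsta2 6.30-fold (adjusted p = 0.0274 and 0.0467, limma). The median log2 difference of the 8 was 0.26, below the difference of 0.81 between the list means. Whether Aldh1a1 and Gsta2 were read from Leydig cells was not tested. The steroidogenic genes that define Leydig cells were low: Star read 2.70 to 3.56, Hsd3b1 2.64 to 3.48 and Cyp11a1 3.17 to 4.21 over all arrays, and Cyp17a1 stayed at 2.15 to 3.17 except on mutant array 2, at 5.11. The 20 peritubular, vascular and macrophage markers averaged 3.65 to 4.25 in mutant and 3.59 to 3.67 in control arrays, with a summed level of 2592 to 4997 against 2904 to 3894. Most of this sum is Actg2, which read 11.22 to 12.12 in mutant and 11.39 to 11.85 in control arrays. On mutant array 1 Dcn read 7.67 and Lyz2 6.08, against at most 4.5 and 3.7 on the other arrays. Lum alone of the 20 rose, where 1.86% of all genes did, and 9 of the 20 had both group means under the array medians. The 14 spermatocyte markers averaged 9.49 to 10.36 and 9.47 to 9.87, and 0 of them passed without the block (limma). At an unadjusted p under 0.05 (limma), 4 were higher and 1 lower, where 11% and 9.16% of all genes were. With the block 3 rose and 1 fell, against 6.6% and 4.94% of all genes. The part that these cells or the RNA quality have in the differences of the Sertoli genes was not tested.

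**Figure D5:**
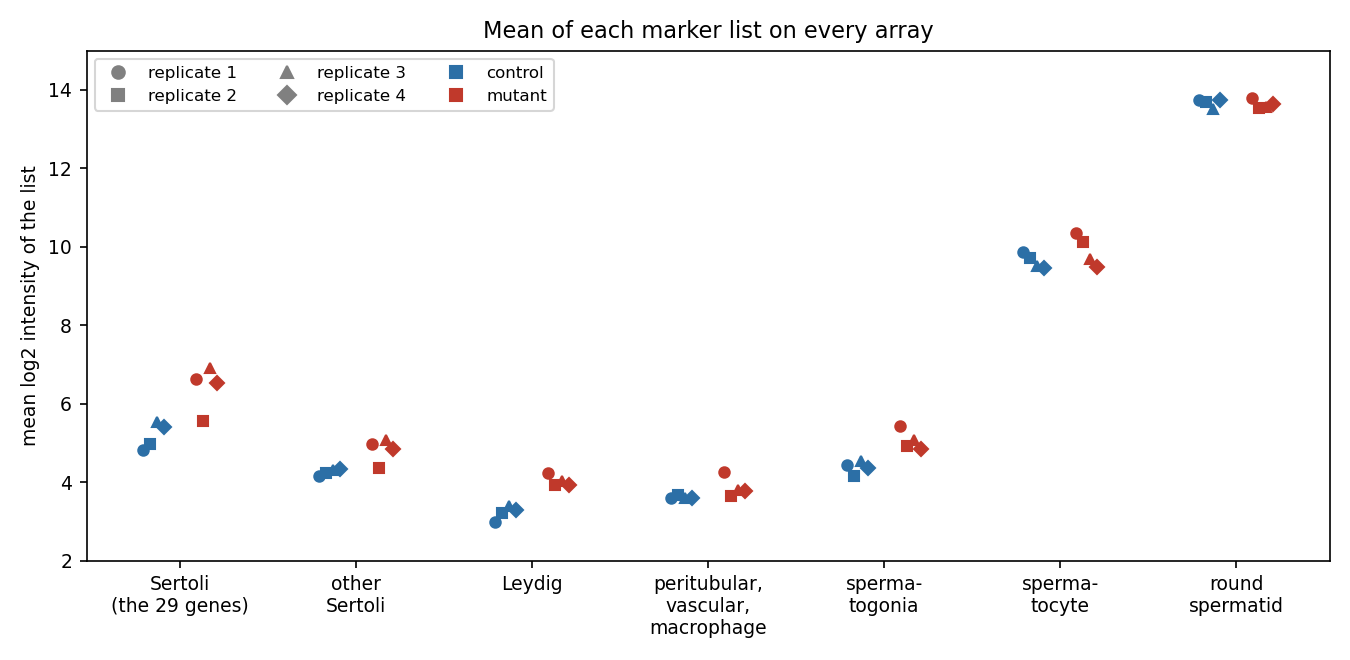
Mean log2 intensity of each marker list on every array, with control in blue, mutant in red and 1 symbol per replicate number. Sertoli, other Sertoli, Leydig and spermatogonia lists have every mutant array above every control array, the Sertoli and other Sertoli lists only narrowly. The round spermatid list stays between 13.5 and 13.8 on all 8 arrays. The Leydig list includes Aldh1a1 and Gsta2, its 2 risen genes, and its median log2 difference is 0.26.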

How the data were processed

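Total RNA of purified round spermatids was hybridised to Affymetrix arrays, 4 mutant and 4 control, grouped and numbered by their titles. The authors deposited 1 log2 intensity for each probe set and array, already normalized. GCRMA and limma appear in the submitters' processing notes, with no version or role. GCRMA pulls dim probe sets towards a floor, which shrinks differences of weakly expressed genes, and no detection calls were used. Precision is limited by the number of arrays.

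The 64 control probe sets were left out, which leaves 45037. The platform annotation gives 1 gene to 34945 of these, several to 932 and none here to 9160, and 34741 symbols were brought up to date by Entrez identifier. Each of 18193 genes was represented by its brightest single-gene probe set. The test was limma 3.58.1 under R 4.3.3 (group as the only term, moderated variances, two-sided), with Benjamini-Hochberg adjustment over all genes and a threshold of 0.05. SE are those of this fit, SD are between arrays (n = 4 per group). The fit was tested on simulated data. Same-numbered arrays deviated from their group means with correlations of 0.364 to 0.495, against -0.261 to -0.017 for other numbers, so the replicate numbers were taken to pair the arrays and the block was used as an alternative. This pairing comes from the data and not from the labels. Where nothing says that pools were prepared separately, p-values measure only the spread between these arrays.

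The members and all gene lists were chosen with earlier results of these data known. All members were named by rule, with up to 4 genes of each other list that passed, taken by smallest adjusted p, and Tnp1, Prm1, Prm2 and Acrv1. The Leydig, peritubular and block-only genes named beside them, and Itgb1, were named after their values were seen. The alternatives left out single arrays, control arrays 1 and 3 or a pair, added the block or the Gapdh difference as a covariate, filtered genes under a mean of 4, averaged probe sets, tested probe sets, recentred or quantile-normalized arrays, and changed the variance prior or array weights. Leaving out a pair within the block, and the block for the members' other probe sets, were added after seeing the data.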

Additional observations from a re-analysis of the deposited data

Results flagged for a closer look

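Among 82 groups of 4 arrays (41 genes in 2 groups), 4 held an array far from the other 3, and chance gives about 1 in 20. Mutant array 2 was low for Ctsl, at 9.91 against 11.39 to 11.55 on the other mutant arrays, and for Wt1, at 4.04 against 5.36 to 5.63. Control array 1 was low for Ocln, at 2.21 against 2.52 to 2.58, a difference within the floor of the arrays. Control array 3 was low for Acrv1, at 13.13 against 13.26 to 13.27.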

How the results depend on the processing

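Without the block 5 Sertoli genes rose. With the replicate block, which uses the pairing of the arrays, 15 rose, as did 8 other Sertoli genes and 9 of the other probe sets of the members, while 1201 of all genes rose and 899 fell. With the block but without replicate 1, 2 or 3, respectively, 11, 18 and 1 members rose, with 627, 1402 and 79 of all genes higher and 521, 862 and 115 lower, and other Sertoli genes numbered 13 without replicate 2 and 0 without replicate 3. Leaving out 1 array at a time gave 0 to 15 members, 0 to 10 other Sertoli genes, 70 to 755 risen and 129 to 376 fallen genes, and a mean difference of the members of 1.05 to 1.51, lowest without mutant array 3 and highest without mutant array 2. Without control arrays 1 and 3, with fewer arrays, 0 members, 0 other Sertoli genes, 18 risen and 50 fallen genes passed. With the Gapdh covariate these were 1, 1, 120 and 140, and with array weights 18, 11, 980 and 675. Quantile normalization gave 618 fallen genes. Members numbered 10 with a minimum mean of 4, where fewer genes are tested and the mean difference covers fewer members (1.88), 11 with variance trend and robust estimation, and 2 when probe sets were tested, where 1 other Sertoli gene passed, against 3 with the mean of all probe sets. Over all genes 416 rose with the minimum mean and 508 with the variance trend, and 323 of all probe sets rose when these were tested. No member fell under any of these settings. Signs turned for genes near 0: Sox9 (-0.065 to 0.088 without 1 array, -0.024 without control arrays 1 and 3, -0.13 after quantile normalization), Amh (-0.091 to 0.033, 0.0067 and 0.019 in that order), Dhh (-0.046 to 0.39), Tnp1 (-0.0098 to 0.12), Prm2 (-0.15 to 0.0087) and Acrv1 (-0.092 to 0.082, -0.0094 without control arrays 1 and 3, -0.0041 with the Gapdh covariate and -0.044 with array weights). Cdh2 turned to 0.53 with the mean of its probe sets. The cause of these changes was not tested. Signal near the floor limits what can be said of the 7 members under the array medians.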
